A study of Mus musculus with 9 samples.

Results

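The Ras and MAP kinase pathway genes are a list of 36 genes of 56748 in the count table, chosen by name for their place in Ras signalling, with earlier results of these data known. They were followed through 9 bulk RNA-seq libraries of hematopoietic stem cells (HSCs) from mouse bone marrow. By role they are 8 GTPases of the Ras family, 7 adaptors and exchange factors that act at receptors, 4 RasGRP exchange factors, 2 Rap exchange factors, 5 GTPase-activating proteins, 6 genes of the kinase cascade and its scaffold, and 4 inhibitors of the Spred and Sprouty families.

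The cells were sorted with the SLAM surface markers of HSCs and fell into 3 groups of 3 libraries (n = 3). Young HSCs (yHSCs) came from mice of 6 to 10 weeks. Pre-aged HSCs (paHSCs) came from mice of 14 to 16 months and were divided by surface P-selectin, the product of Selp, into Selp_low and Selp_high fractions. The labels name no genotype, transgene or treatment, and the methods state that all mice were female and of a C57BL/6 background. The labels do not say how many animals each library pooled, so p-values measure the spread between these libraries. The comparisons ask how the young cells and the paHSC fractions differ.

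Ras proteins are switches that signal when they carry GTP. Exchange factors load the GTP after a receptor for a growth factor or cytokine is engaged, GTPase-activating proteins speed its hydrolysis, and active Ras starts a cascade in which a RAF kinase phosphorylates MEK and MEK phosphorylates ERK. In blood stem cells this route lies downstream of receptors such as Kit. The related Rap proteins are switched by their own exchange factors and are best known for control of integrin adhesion, above all in platelets. The transcripts measured here give the amount of mRNA and not the activity of these proteins, which is set largely by GTP loading and phosphorylation.

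Levels are given as CPM (read counts relative to library size, after the TMM scaling that discounts a few dominant genes), and levels of different genes were compared as FPKM (CPM per kilobase of gene length). Depth was 24866975 to 35375310 counts per library, at which a count of 0 allows a level of up to 0.0695 to 0.198 CPM, a limit that covers counting error alone. All 36 members had counts in every library, and all 36 passed the filter on low counts in each comparison. The 10 most abundant genes took 44.8% of the counts in Selp_low replicate 2 and 20.9% in Selp_low replicate 3, against 3.90 to 12.5% in the other libraries, and the TMM factors of these libraries were 0.545 and 0.785 against 1.05 to 1.22. Selp, the sorting gene, checked the labels: it was at 20.5, 30.0 and 23.2 CPM in yHSCs, 109, 29.3 and 93.3 in Selp_low paHSCs and 652, 265 and 264 in Selp_high paHSCs, so every Selp_high library lay above every other one. The defining markers of HSCs were present in all libraries, with a sum of 1081 to 3633 CPM over 12 genes. The sum hides differences between these genes. In Selp_low replicate 2 Ly6a alone gave 879 CPM of a sum of 1447. Hlf (22.8 CPM), Mecom (13.0), Procr (15.7) and Hoxa9 (16.3) had their lowest level of the 9 libraries there. Slamf1, at 62.6 CPM in that library, lay above the yHSC libraries (10.9, 15.2 and 19.3). Markers of other blood cells were not even. The summed CPM of 12 B-cell and plasma-cell genes was 5861, 106504 and 86.3 in Selp_low replicates 1, 2 and 3 (mostly Jchain in replicate 2), 196, 360.5 and 359 in yHSCs and 389, 3736 and 675 in Selp_high paHSCs. Jchain was also most of this sum in Selp_high replicates 2 and 3, at 3189 and 473 CPM. The sum of 12 neutrophil genes reached 215002 CPM in Selp_low replicate 3. Fewer cells of a type and less RNA per cell cannot be told apart in bulk libraries.

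Before the changes, the levels show which parts of the pathway these cells carry. The mean FPKM over 9 libraries was above 10 for 15 members, from 1 to 10 for 16 and below 1 for 5, with a median of 5.87. Rap1b, a small GTPase of integrin activation, stood first among the 36 at 410.4 FPKM, followed by its close relative Rap1a at 57.1 FPKM. The adaptor Grb2 (55.4 FPKM) and the GTPase-activating protein Rasa3 (44.1 FPKM), which acts on both Ras and Rap1, came next. Of the classical Ras genes, Hras was at 14.2 FPKM and Nras at 12.2 FPKM, so that the Rap1 transcripts lay above them per length. In the cascade Map2k1 (MEK1) was at 29.4 FPKM, Mapk3 (ERK1) at 28.5, Map2k2 (MEK2) at 23.8 and Araf at 23.6, while Braf was far lower at 1.22 FPKM. The per-length levels of Map2k1, Mapk3, Map2k2 and Araf overlapped between libraries, so the order of these 4 is not resolved. The RasGRP factor with the highest mean was Rasgrp2 (10.7 FPKM), and the inhibitor with the highest mean was Spry1 (26.2 FPKM). The 5 members below 1 FPKM were Rapgef2, Spry2, Ksr1, Rap2b and Nf1, from 0.619 down to 0.282 FPKM.

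How far a member varied between libraries depended on the gene. The ratio of the highest to the lowest library was 1.49 for Araf and 1.57 for Nras, the steadiest of the 36. It was 109 for Rasgrp3, 44.2 for Rasgrp1, 31.3 for Rasgrp4 and 22.9 for Spry2. Thus 3 of the 4 RasGRP genes head this order. Reads of overlapping genes on the other strand may not be kept apart here, because the strand setting of the counting is not stated. Overlap was judged on whole gene spans, introns included, so it does not show that counted reads are shared. Such a gene held at least 10% as many counts as the member at 5 members: Rasgrp4 (Fam98c), Nf1 (Evi2a and Evi2), Rasa1 (Ccnh), Braf (Ndufb2) and Rapgef2 (4921511C10Rik). Their values may be uncertain to that extent.

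**Figure D1:**
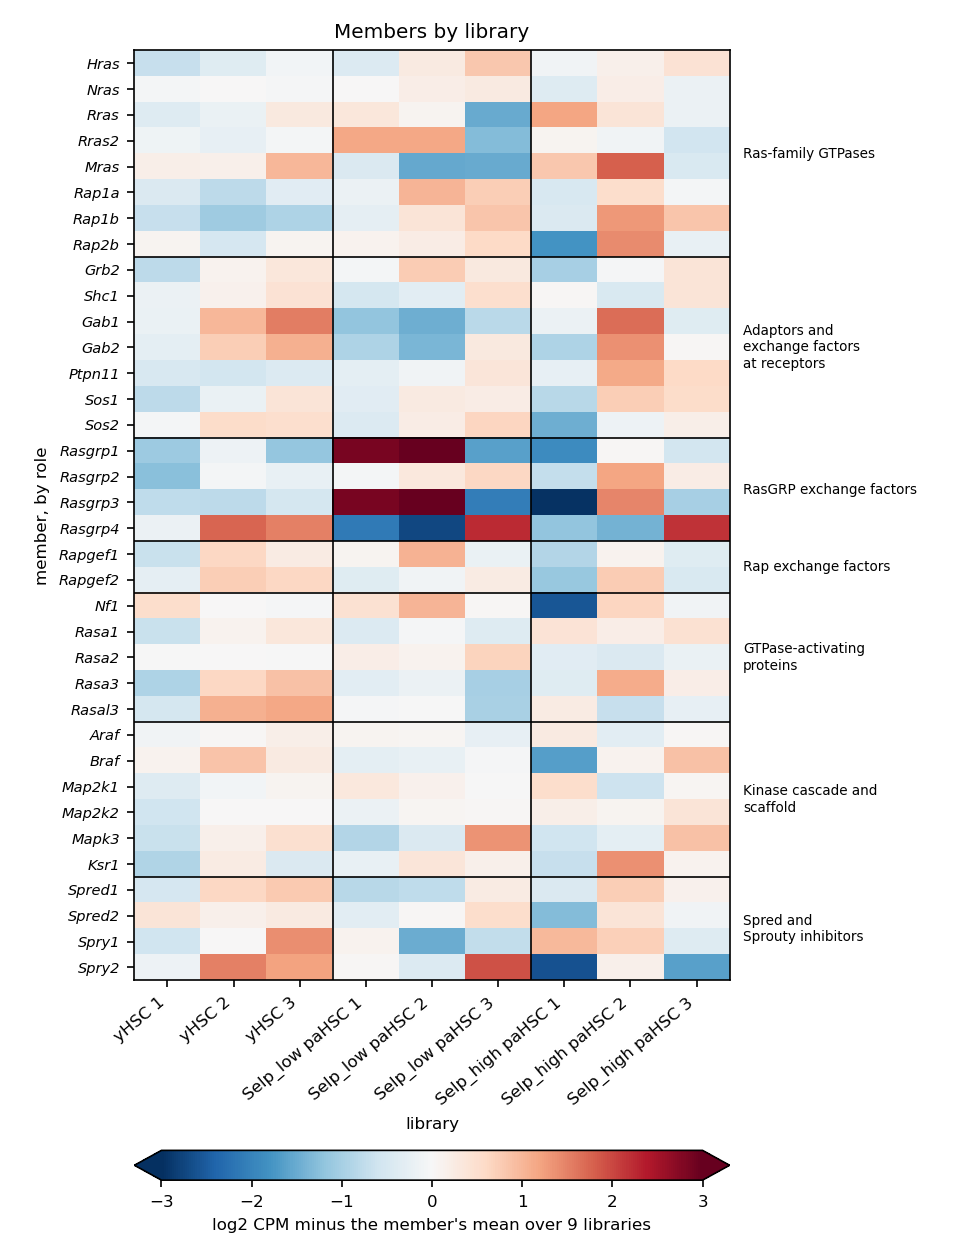
Levels of the 36 members (rows, ordered by role) in the 9 libraries (columns), as log2 CPM minus the member's mean over all libraries, with red above and blue below that mean and the scale ending at 3 on either side. Rasgrp1 and Rasgrp3 are dark red in Selp_low replicates 1 and 2 and blue in Selp_low replicate 3, while Araf and Nras are nearly white in every library.

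The members were then compared between groups. The 3 comparisons share their groups of libraries and are not independent of each other. A call needed an adjusted p no higher than 0.05 together with a log2 fold change of 1 or more in either direction. By edgeR's quasi-likelihood test 0 of 36 members were called in Selp_high over Selp_low paHSCs, where 0% of all genes tested were called. The count was 0 of 36 in Selp_high paHSCs over yHSCs, where 0.165% of all genes were called, and 0 of 36 in Selp_low paHSCs over yHSCs, where 0% were. At an unadjusted p under 0.05 there were 5, 2 and 6 members in the same order, or 13.9%, 5.56% and 16.7% of them, beside 12.5%, 7.59% and 11.3% of all genes tested. The lowest adjusted p of a member was 0.338, 0.333 and 0.332. DESeq2, the tool of the study, which gave Rasgrp4 no adjusted p in the first comparison, called 1, 1 and 3 members, beside 2.28%, 2.78% and 2.95% of all genes it tested. These calls were Rasgrp1 (lower) in Selp_high over Selp_low paHSCs, Rap1b (higher) in Selp_high paHSCs over yHSCs, and Gab1 (lower), Rasgrp1 (higher) and Rasgrp3 (higher) in Selp_low paHSCs over yHSCs. An exact 2-sided permutation test of single members cannot go below p = 0.1 in this design.

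Equally numbered libraries of the paHSC fractions were treated as pairs because their residuals correlated (0.178, 0.276 and 0.303), although the labels name no pairs. Selp_high and yHSC libraries, which cannot be pairs, correlated at up to 0.449, so these correlations do not establish pairs. All results with the replicate block carry this limit. DESeq2 with the replicate block changed the calls between the fractions. It called 3 members higher in Selp_high than in Selp_low paHSCs, Mras, Gab1 and Spry1, and no longer called Rasgrp1 (adjusted p = 0.154 by DESeq2), in a fit that called 9.45% of all genes. The block raised the share called over all genes as well, and edgeR with the same replicate block called 0 members.

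Groups without overlap, in which all 3 libraries of one group lie above all 3 of the other, were counted next. In Selp_high over Selp_low paHSCs 3 members lay higher without overlap (Gab1, Rasa1 and Map2k2), or 8.33% beside 10.3% of all genes tested, and 1 lay lower (Rasa2), or 2.78% beside 10.6%. In Selp_high paHSCs over yHSCs 3 lay higher (Rap1b, Ptpn11 and Map2k2), or 8.33% beside 8.52% of all genes, and 1 lower (Rasa2), or 2.78% beside 5.28%. In Selp_low paHSCs over yHSCs 6 lay higher (Nras, Rap1a, Rap1b, Rap2b, Ptpn11 and Rasa2), or 16.7% beside 9.59% of all genes, and 3 lower (Mras, Gab1 and Braf), or 8.33% beside 6.74%. With so few members these shares are not read as a difference from all genes, and the counts changed with the scale, as given below. Overlap was judged on the TMM scale unless another scale is named.

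The directions of whole groups of genes depend on the scale. Plain library totals in place of TMM move all genes by 0.52 on the log2 scale in Selp_high over Selp_low paHSCs, by -0.07 in Selp_high over yHSCs and by -0.59 in Selp_low over yHSCs, so medians are best read against the median of all genes. The median log2 fold change of the members was 0.04, -0.01 and 0.22 in these comparisons, beside -0.11, -0.03 and 0.08 for all genes tested, or 0.15, 0.03 and 0.13 above them. With plain totals 1 member (Rap1a) in place of 6 lay higher without overlap in Selp_low paHSCs over yHSCs, where the share of all genes went from 9.59% to 1.65%. On that scale 6 members in place of 3 lay lower, where the share of all genes went from 6.74% to 17.7%. Gab2, Rapgef2 and Spred2 joined Gab1, Mras and Braf there. In Selp_high over Selp_low paHSCs plain totals left 3 members higher, beside 18.2% of all genes, and 0 lower, beside 2.72%, so that Rasa2 no longer lay lower. In Selp_high paHSCs over yHSCs they left 5 higher, with Hras and Rasa1 added, beside 7.87% of all genes, and 1 lower, beside 6.58%. With DESeq2's size factors 2 members lay higher between the paHSC fractions (9.45% of all genes) and 1 lower (11.7%). On that scale 5 lay higher in Selp_high paHSCs over yHSCs, Hras and Rasa1 again added (8.07%), and 1 lower (6.41%). In Selp_low paHSCs over yHSCs 6 lay higher, with Rasgrp2 and Map2k1 in place of Nras and Rap2b (8.86%), and 3 lower (8.08%).

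**Figure D2:**
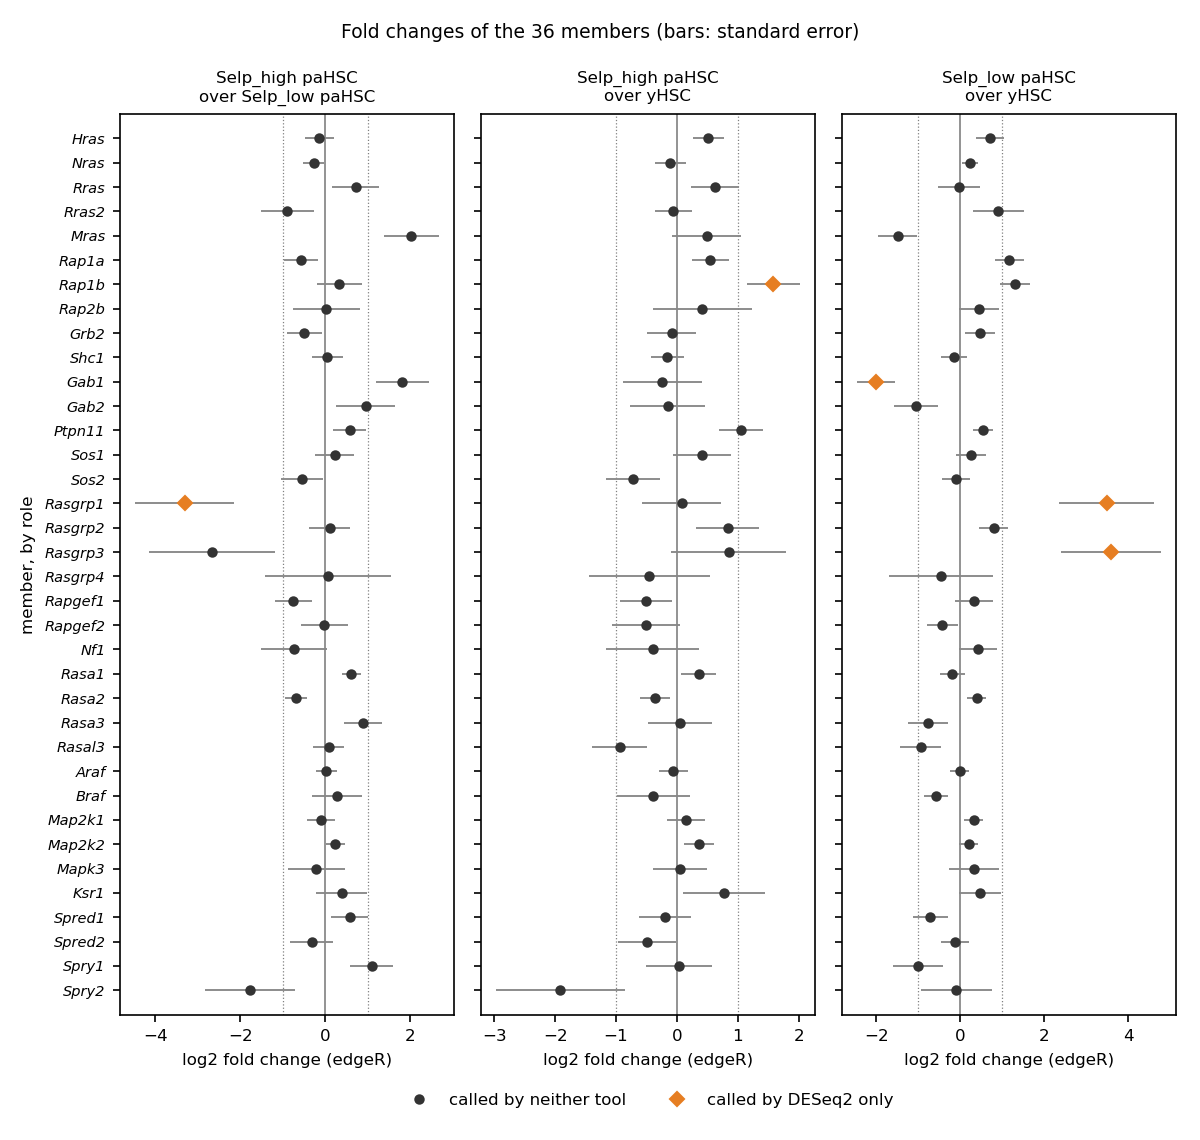
Log2 fold change of each member (points, ordered by role) with its standard error (bars) from edgeR's quasi-likelihood fits of 3 against 3 libraries, for the 3 comparisons, each with its own horizontal axis. Orange diamonds are the 5 changes that DESeq2 called and edgeR did not, and the dotted lines mark a log2 fold change of 1 in either direction. Most points lie between the dotted lines, and the widest bars belong to Rasgrp1, Rasgrp3 and Rasgrp4 in the comparisons with Selp_low paHSCs.

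The 4 members that DESeq2 called without the block are shown with the 250 bases that precede their start site, to put the sequence beside the level changes. The sequences are those of RefSeq on build GRCm38.p6, which differs from the build of the count table (mm39 per the labels), so the positions below are not comparable with gene positions given elsewhere. The 4 windows are those of Rap1b at chr10:117845975-117846224 on the minus strand, Gab1 at chr8:80880520-80880769 on the minus strand, Rasgrp1 at chr2:117342878-117343127 on the minus strand and Rasgrp3 at chr17:75435655-75435904 on the plus strand. Gab1 and Rasgrp3 each have 2 windows in the table, of which the first is shown. Capitals mark matches, on either strand, to 7 short motifs: the GC box GGGCGG, the ETS core CCGGAA, the RUNX core TGTGGT, the GATA site AGATAA, the E-box CACGTG, the cyclic AMP response element TGACGTCA and the CCAAT box.
Rap1b: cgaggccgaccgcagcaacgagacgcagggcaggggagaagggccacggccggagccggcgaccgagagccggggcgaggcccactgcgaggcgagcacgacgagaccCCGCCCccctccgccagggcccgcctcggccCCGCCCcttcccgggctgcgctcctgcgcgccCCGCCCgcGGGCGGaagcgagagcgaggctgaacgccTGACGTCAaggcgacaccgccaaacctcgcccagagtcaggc
Gab1: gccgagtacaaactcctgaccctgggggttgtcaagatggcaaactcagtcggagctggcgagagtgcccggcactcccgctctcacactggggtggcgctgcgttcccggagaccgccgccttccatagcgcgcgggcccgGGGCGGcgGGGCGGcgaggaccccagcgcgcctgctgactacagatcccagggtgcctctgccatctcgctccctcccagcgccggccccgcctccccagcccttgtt
Rasgrp1: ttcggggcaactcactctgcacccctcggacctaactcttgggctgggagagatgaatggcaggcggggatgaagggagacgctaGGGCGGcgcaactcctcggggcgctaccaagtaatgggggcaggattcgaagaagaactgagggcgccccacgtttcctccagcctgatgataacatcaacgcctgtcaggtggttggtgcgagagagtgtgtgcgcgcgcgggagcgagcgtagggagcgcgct
Rasgrp3: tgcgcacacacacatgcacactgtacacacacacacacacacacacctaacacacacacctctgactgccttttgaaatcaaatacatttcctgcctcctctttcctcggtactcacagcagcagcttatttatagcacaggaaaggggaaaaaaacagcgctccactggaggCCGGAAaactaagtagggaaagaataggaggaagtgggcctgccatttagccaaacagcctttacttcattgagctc
The Rap1b window held 4 GC boxes and a cyclic AMP response element, the Gab1 window 2 GC boxes and the Rasgrp1 window 1, and none of the marked matches overlapped another. The Rasgrp3 window stood apart: it held no GC box and 1 ETS core, and its GC content was 47.6%, against 62.4%, 70.8% and 77.2% for Rasgrp1, Gab1 and Rap1b. Over all 27025 genes with a window the median GC content was 52.0%, 32.9% held a GC box, 12.2% an ETS core and 1.62% the cyclic AMP response element. Of the 36 members 32 had a window, with a median GC content of 63.4%, and 23 of them held a GC box, 8 an ETS core and 3 the cyclic AMP response element. The RUNX core was in 5 of the 32 (14.2% of all genes), the GATA site in 2 (10.3%), the E-box in 2 (6.05%) and the CCAAT box in 11 (34.5%). A match describes these letters and is not evidence of binding.

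Among the Ras-family GTPases, Rap1b stood out by a higher level in paHSCs than in yHSCs. Rap1b (ENSMUSG00000052681, chromosome 10 from 117649776 to 117681940, minus strand) was at 623, 483 and 534 CPM in yHSC replicates 1, 2 and 3, 842, 1329 and 1803 in Selp_low paHSCs and 747, 2492 and 1797 in Selp_high paHSCs. Each paHSC library lay above each yHSC library, and the paHSC fractions overlapped widely. With plain library totals the gap of Selp_high paHSCs was kept and that of Selp_low paHSCs was not. The log2 fold change was 1.59 (SE 0.43) in Selp_high paHSCs over yHSCs (edgeR adjusted p = 0.333, DESeq2 adjusted p = 0.0451) and 1.31 (SE 0.36) in Selp_low paHSCs over yHSCs (0.332 by edgeR, 0.120 by DESeq2). Per length, its mean was 189.6 ± 24.6 FPKM (SD, n = 3) in yHSCs, 459 ± 166 in Selp_low and 582 ± 305 in Selp_high paHSCs. The DESeq2 call in Selp_high over yHSCs was lost without yHSC replicate 2 (adjusted p = 0.276), yHSC replicate 3 (0.334), Selp_high replicate 2 (0.213) or Selp_high replicate 3 (0.121), with a log2 fold change of 1.13 to 1.92 over all 6 omissions. The summed level of 12 megakaryocyte and platelet genes, a lineage rich in Rap1b, was also higher in Selp_high paHSCs than in yHSCs. It was 137, 214 and 217 CPM in yHSCs, 198, 1701 and 2265 in Selp_low paHSCs and 1495, 8431 and 4138 in Selp_high paHSCs. In Selp_low replicate 1 the sum was within the range of yHSCs, while Rap1b was above it. Selp_high replicate 1 had a higher sum but less Rap1b than Selp_low replicate 1. Itga2b, a defining marker of that lineage, had a level of 49.4, 103 and 96.9, 47.6, 253 and 410.3 and 441, 1815 and 1226 CPM in the same libraries, and none of the 12 markers was at 0 throughout a group. The part of such cells or transcripts in the Rap1b level was not tested.

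Rap1a (ENSMUSG00000068798, chromosome 3 from 105634583 to 105708652, minus strand), which shares most of its protein sequence with Rap1b, was at 100.4, 79.0 and 107 CPM in yHSC replicates 1, 2 and 3, 121, 277 and 227 in Selp_low paHSCs and 98.2, 197 and 131 in Selp_high paHSCs. All Selp_low libraries lay above the yHSC libraries, also with plain library totals, whereas Selp_high paHSCs overlapped with both groups. Its log2 fold change in Selp_low paHSCs over yHSCs was 1.17 (SE 0.35), with an edgeR adjusted p of 0.337. Rap2b (ENSMUSG00000036894, chromosome 3 from 61269059 to 61275851, plus strand), a more distant Rap protein, was low, at 2.84, 1.88 and 2.84 CPM in yHSCs, 2.88, 3.10 and 4.01 CPM in Selp_low paHSCs and 0.775, 7.14 and 2.29 CPM in Selp_high paHSCs. Its Selp_low libraries lay above the yHSC libraries by a margin far smaller than the spread of the Selp_high libraries (log2 fold change 0.44 (SE 0.48), edgeR adjusted p = 0.861).

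Of the classical Ras genes, Nras (ENSMUSG00000027852, chromosome 3 from 102965601 to 102975230, plus strand) was at 62.3, 64.9 and 63.1 CPM in yHSCs, 65.0, 74.0 and 77.5 CPM in Selp_low paHSCs and 49.4, 74.1 and 56.9 CPM in Selp_high paHSCs. The lowest Selp_low library exceeded the highest yHSC library by less than 1 CPM, and the log2 fold change was 0.23 (SE 0.19) (edgeR adjusted p = 0.773). The gaps of Nras and Rap2b were absent with plain totals and with DESeq2's size factors. Hras ranged from 31.2 to 88.6 CPM over the 9 libraries, with log2 fold changes of 0.52 and 0.72 over yHSCs in Selp_high and Selp_low paHSCs (edgeR adjusted p = 0.767 and 0.486). Its mean was 39.3 CPM in yHSCs, 62.7 in Selp_low and 57.2 in Selp_high paHSCs, and with plain totals and with DESeq2's size factors all Selp_high libraries lay above all yHSC libraries. The R-Ras genes Rras and Rras2 ranged from 9.33 to 60.1 and 6.71 to 37.0 CPM and overlapped in every comparison.

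Mras (ENSMUSG00000032470, chromosome 9 from 99267473 to 99319434, minus strand), a Ras relative that forms a phosphatase complex with Shoc2 to activate RAF kinases, was at 9.65, 9.46 and 17.1 CPM in yHSCs, 6.36, 2.96 and 3.00 CPM in Selp_low paHSCs and 14.8, 29.6 and 6.19 CPM in Selp_high paHSCs. The Selp_low libraries lay below all yHSC libraries, and Selp_high replicate 3 fell just below the highest Selp_low library. The estimated log2 fold change was -1.49 (SE 0.47) in Selp_low paHSCs over yHSCs (edgeR adjusted p = 0.343, DESeq2 0.106) and 2.03 (SE 0.65) in Selp_high over Selp_low paHSCs (0.338 by edgeR, 0.0898 by DESeq2). With the replicate block DESeq2 gave 1.82 (SE 0.52, adjusted p = 0.00942) for the paHSC fractions.

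At the receptor, the docking protein Gab1 had the clearest pattern of the 7 adaptors and exchange factors. Gab1 (ENSMUSG00000031714, chromosome 8 from 81491067 to 81607148, minus strand), which gathers Ptpn11 and other effectors at activated receptors, was at 12.3, 28.0 and 40.9 CPM in yHSC replicates 1, 2 and 3, 6.23, 5.07 and 8.02 in Selp_low paHSCs and 12.5, 45.0 and 10.9 in Selp_high paHSCs. All Selp_low libraries lay below every other library, also with the other scales tried. The log2 fold change was -2.01 (SE 0.45) in Selp_low paHSCs over yHSCs, with an adjusted p of 0.332 by edgeR and 0.0129 by DESeq2. In Selp_high over Selp_low paHSCs it was 1.82 (SE 0.62) (0.340 by edgeR, 0.121 by DESeq2), and 1.48 (SE 0.53, adjusted p = 0.0492) by DESeq2 with the replicate block. Selp_high replicate 2 carried much of that difference, which fell to 0.87 by DESeq2 without it. Between Selp_high paHSCs and yHSCs the log2 fold change was -0.24 (SE 0.65). The DESeq2 call in Selp_low over yHSCs was lost without yHSC replicate 2 (adjusted p = 0.129), yHSC replicate 3 (0.309) or Selp_low replicate 2 (0.112). Its relative Gab2 ranged from 4.41 to 29.8 CPM, with a log2 fold change of -1.06 (SE 0.52) in Selp_low paHSCs over yHSCs, and its groups overlapped.

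Ptpn11 (ENSMUSG00000043733, chromosome 5 from 121268596 to 121329460, minus strand), the tyrosine phosphatase Shp2 that Gab1 binds, was at 32.1, 30.7 and 33.8 CPM in yHSCs, 36.7, 42.0 and 57.8 CPM in Selp_low paHSCs and 38.1, 98.7 and 67.7 CPM in Selp_high paHSCs. Every paHSC library lay above every yHSC library, where the 3 values were close together. Its log2 fold change over yHSCs was 1.05 (SE 0.37) in Selp_high paHSCs (edgeR adjusted p = 0.502) and 0.54 (SE 0.24) in Selp_low paHSCs (0.465), and the gap of Selp_low paHSCs was absent with plain totals. DESeq2 called it in Selp_high over yHSCs without Selp_high replicate 1, the lowest library of its group.

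Grb2 (ENSMUSG00000059923, chromosome 11 from 115534871 to 115599423, minus strand), the adaptor that brings Sos to receptors, was at 88.6, 162 and 192 CPM in yHSCs, 147, 258 and 185 CPM in Selp_low paHSCs and 76.4, 148 and 198 CPM in Selp_high paHSCs. The groups overlapped, and yHSC replicate 1 and Selp_high replicate 1 were the low libraries. The Ras exchange factors Sos1 and Sos2 ranged from 8.45 to 25.4 and 6.64 to 28.7 CPM and the adaptor Shc1 from 94.2 to 194 CPM, each with overlap in every comparison. Their log2 fold changes lay between -0.72 and 0.41.

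**Figure D3:**
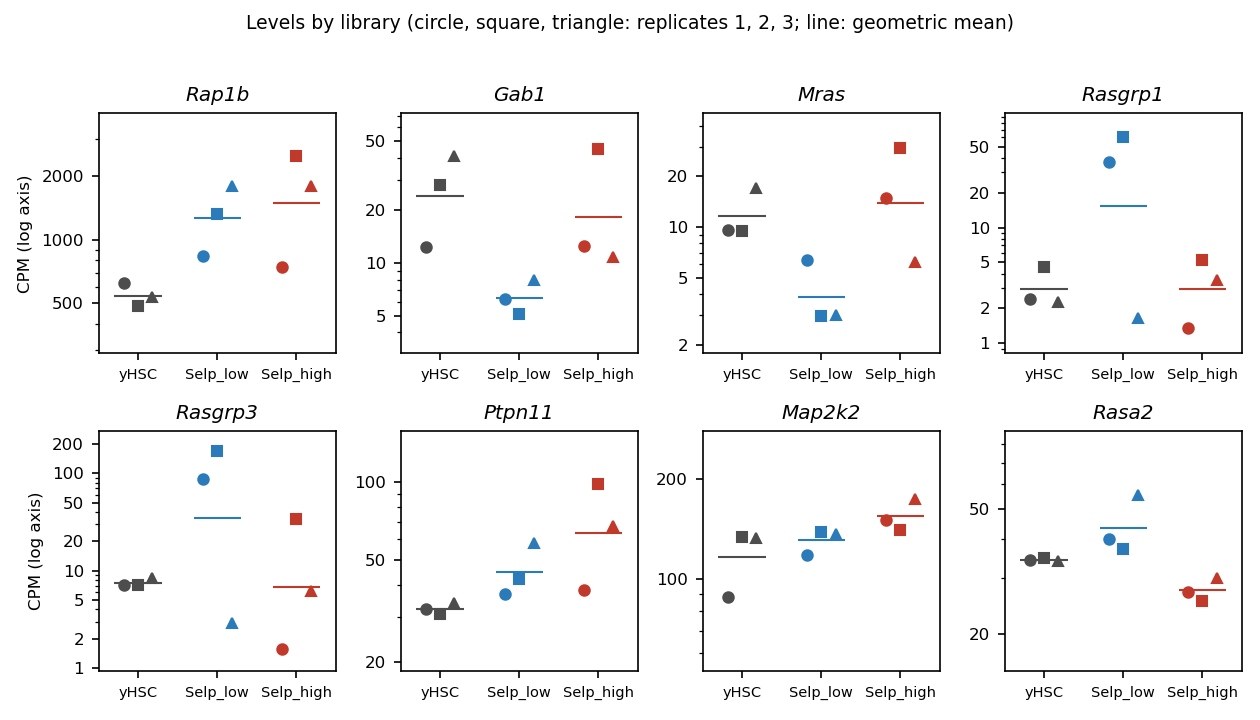
CPM (log axis) of 8 members in each library, with circles, squares and triangles for replicates 1, 2 and 3 and a line at the geometric mean of each group. Gab1 lies lower in all 3 Selp_low libraries than in any other, Rap1b and Ptpn11 lie lower in all 3 yHSC libraries than in any other, and for Rasgrp1 and Rasgrp3 the triangle of Selp_low paHSCs sits apart from the other Selp_low points.

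The RasGRP factors load GTP onto Ras or Rap in response to diacylglycerol or calcium, and Rasgrp1 and Rasgrp3 held the largest fold changes of the list in both comparisons with Selp_low paHSCs. Rasgrp1 (ENSMUSG00000027347, chromosome 2 from 117110474 to 117173482, minus strand), the exchange factor of T-cell receptor signalling, was at 2.40, 4.59 and 2.30 CPM in yHSC replicates 1, 2 and 3, 36.8, 60.5 and 1.65 in Selp_low paHSCs and 1.37, 5.22 and 3.49 in Selp_high paHSCs. Selp_low replicates 1 and 2 stood far above the other 7 libraries, and Selp_low replicate 3 lay among the lowest, so the groups overlapped. The estimated log2 fold change was 3.49 (SE 1.13) in Selp_low paHSCs over yHSCs (adjusted p = 0.348 by edgeR and 0.0251 by DESeq2) and -3.30 (SE 1.16) in Selp_high over Selp_low paHSCs (0.350 by edgeR, 0.0295 by DESeq2). Rasgrp3 (ENSMUSG00000071042, chromosome 17 from 75742891 to 75836049, plus strand), which acts on both Ras and Rap and is used by B-cell receptors, was at 7.14, 7.12 and 8.48 CPM in yHSC replicates 1, 2 and 3, 87.2, 169.5 and 2.88 in Selp_low paHSCs and 1.55, 33.7 and 6.13 in Selp_high paHSCs. Again Selp_low replicates 1 and 2 were the high libraries, followed by Selp_high replicate 2, and Selp_low replicate 3 was below all yHSCs. Its log2 fold change was 3.59 (SE 1.19) in Selp_low paHSCs over yHSCs (0.354 by edgeR, 0.0237 by DESeq2) and -2.66 (SE 1.48) in Selp_high over Selp_low paHSCs (0.511 by edgeR, 0.217 by DESeq2).

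The libraries with high Rasgrp1 and Rasgrp3 were also those with lymphocyte transcripts. Cd3e, a T-cell marker, was at 19.3, 90.0 and 0.487 CPM in Selp_low replicates 1, 2 and 3, 0.305, 1.95 and 0.602 in yHSCs and 0.646, 4.51 and 2.98 in Selp_high paHSCs. Cd3e and the sum of the B-cell and plasma-cell genes thus stood out in the same Selp_low libraries as Rasgrp1 and Rasgrp3, and neither did in Selp_low replicate 3. The sums of 12 T and NK genes were 668, 1612 and 631 CPM in Selp_low, 116, 103 and 126 in yHSCs and 82.2, 132 and 137 in Selp_high libraries. In Selp_low replicate 3 nearly all of that sum was Nkg7, at 619 CPM, against 71.0 and 291 CPM in Selp_low replicates 1 and 2. Of the 12 B-cell and plasma-cell genes 0 were at 0 in every library of a group. The part of these cells in the levels of Rasgrp1 and Rasgrp3 was not tested. Without Selp_low replicate 3 edgeR called both genes in Selp_low over yHSCs, in a fit that called 0.534% of all genes. When Selp_low replicate 2 was left out, the DESeq2 adjusted p was 0.384 for Rasgrp1 and 0.401 for Rasgrp3. Without Selp_low replicate 1 it was 0.0710 and 0.0585, and without yHSC replicate 3 it was 0.337 and 0.257. Without yHSC replicate 2 Rasgrp1 kept its DESeq2 call (adjusted p = 0.0493) and Rasgrp3 did not (0.136). Between the paHSC fractions the DESeq2 call of Rasgrp1 was lost without Selp_low replicate 1 (adjusted p = 0.0973), Selp_low replicate 2 (0.450), Selp_high replicate 1 (0.161) or Selp_high replicate 3 (0.105). Rasgrp3 was called there without Selp_low replicate 3 (0.0251) or Selp_high replicate 2 (0.0107).

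**Figure D4:**
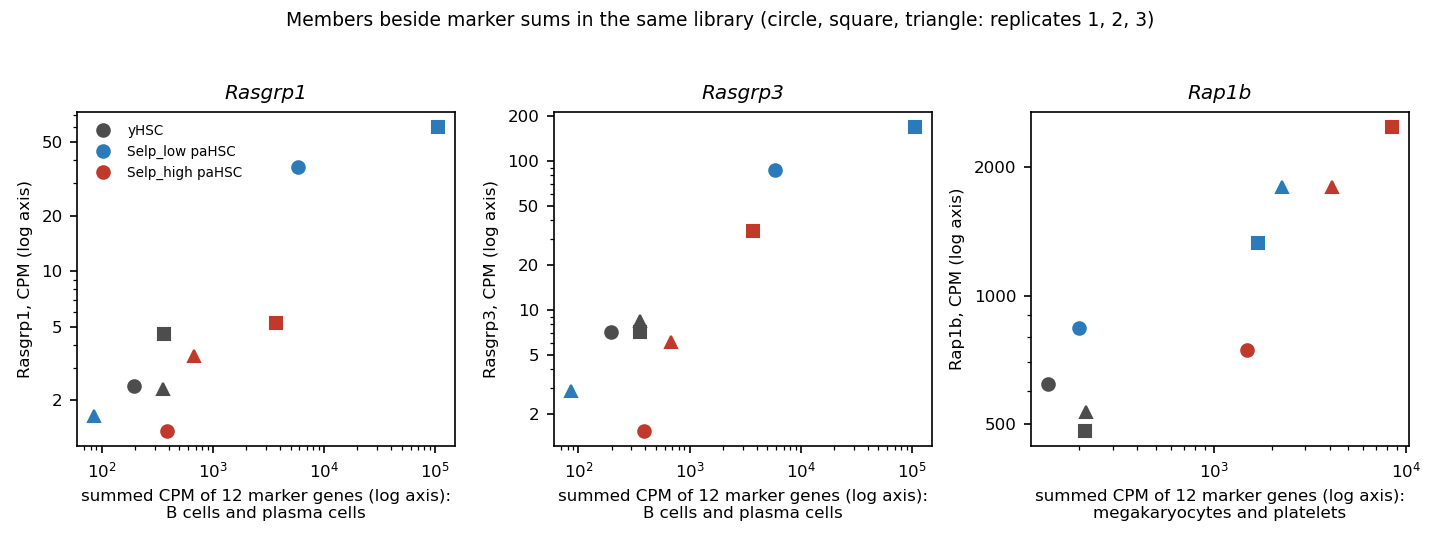
CPM of Rasgrp1, Rasgrp3 and Rap1b (vertical log axes) against the summed CPM of 12 marker genes in the same library (horizontal log axes), with B-cell and plasma-cell genes for Rasgrp1 and Rasgrp3 and megakaryocyte and platelet genes for Rap1b; colours are groups and shapes are replicates. Selp_low replicates 1 and 2 lie at the upper right for both RasGRP genes and Selp_low replicate 3 at the lower left, and for Rap1b the yHSC libraries lie at the lower left and Selp_high replicate 2 at the upper right.

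Rasgrp2 (ENSMUSG00000032946, chromosome 19 from 6449370 to 6465246, plus strand), the calcium-regulated exchange factor for Rap1 in platelets and partner of Rap1b, was at 49.9, 115 and 101 CPM in yHSCs, 114, 147 and 184 CPM in Selp_low paHSCs and 72.0, 269.9 and 138 CPM in Selp_high paHSCs. Its lowest Selp_low library was just under its highest yHSC library, and Selp_high replicate 2 was the highest of all. The log2 fold change over yHSCs was 0.80 (SE 0.34) in Selp_low paHSCs (edgeR adjusted p = 0.451) and 0.84 (SE 0.52) in Selp_high paHSCs (0.865). Rasgrp4, known from mast cells and myeloid cells, was at 4.26, 16.2 and 13.7 CPM in yHSCs, 1.11, 0.725 and 22.7 CPM in Selp_low paHSCs and 2.12, 1.80 and 21.8 CPM in Selp_high paHSCs. In both paHSC fractions replicate 3 stood far above replicates 1 and 2, and in those libraries the sum of 12 neutrophil genes was 215002 CPM (Selp_low) and 43605 CPM (Selp_high) against 631 to 6540 CPM in replicates 1 and 2. In yHSCs the order of the sum was the reverse, with the highest neutrophil sum (65087 CPM, against 13581 and 19528) and the lowest Rasgrp4 in replicate 1. Single neutrophil genes differed there. Ngp, the largest part of that sum, was at 34082, 4603 and 6328 CPM in yHSC replicates 1, 2 and 3. Mmp8, at 54.8, 293 and 463 CPM, was lowest in replicate 1 as Rasgrp4 was, and so were Mmp9 and Retnlg. The part of neutrophils in the Rasgrp4 level was not tested. Its log2 fold changes lay between -0.46 and 0.07 with SEs near 1 or above, and its overlap with Fam98c adds to the uncertainty.

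The Rap exchange factors load GTP onto Rap proteins. Rapgef1 (ENSMUSG00000039844, chromosome 2 from 29509732 to 29630990, plus strand), an exchange factor bound by the adaptor Crk, was at 16.1, 39.4 and 30.7 CPM in yHSCs, 27.3, 53.3 and 22.3 CPM in Selp_low paHSCs and 13.9, 27.9 and 20.0 CPM in Selp_high paHSCs. The groups overlapped, and the log2 fold change in Selp_high over Selp_low paHSCs was -0.74 (SE 0.44) (edgeR adjusted p = 0.530). Rapgef2 ranged from 3.62 to 13.5 CPM and overlapped in every comparison.

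Among the GTPase-activating proteins, which turn Ras or Rap off, the members differed in direction. Rasa2 (ENSMUSG00000032413, chromosome 9 from 96421353 to 96513670, minus strand) was at 34.4, 34.9 and 34.0 CPM in yHSCs, 39.9, 37.2 and 55.1 CPM in Selp_low paHSCs and 27.1, 25.3 and 30.1 CPM in Selp_high paHSCs. The order of the groups was Selp_high below yHSCs below Selp_low paHSCs, with no overlap between any pair, although each step was small. Its log2 fold change was -0.69 (SE 0.26) in Selp_high over Selp_low paHSCs, -0.36 (SE 0.24) in Selp_high over yHSCs and 0.39 (SE 0.23) in Selp_low over yHSCs (edgeR adjusted p = 0.364, 0.887 and 0.596). With plain totals the gap of Selp_high below yHSCs was present and the gaps of Selp_low paHSCs were not. Rasa1 (ENSMUSG00000021549, chromosome 13 from 85362899 to 85437249, minus strand), the p120 RasGAP, was at 38.4, 65.7 and 76.6 CPM in yHSCs, 45.5, 59.8 and 46.3 CPM in Selp_low paHSCs and 80.5, 69.8 and 84.3 CPM in Selp_high paHSCs. It was higher in all Selp_high than in all Selp_low libraries (log2 fold change 0.62 (SE 0.23), edgeR adjusted p = 0.360), with the reservation that its reads can be shared with Ccnh. Rasa3 (ENSMUSG00000031453, chromosome 8 from 13616948 to 13727603, minus strand) was at 105, 309 and 364 CPM in yHSCs, 159, 176 and 99.9 CPM in Selp_low paHSCs and 154, 428 and 228 CPM in Selp_high paHSCs, with yHSC replicate 1 and Selp_low replicate 3 the low libraries. Its groups overlapped, and the log2 fold change was 0.89 (SE 0.44) in Selp_high over Selp_low paHSCs and -0.76 (SE 0.47) in Selp_low over yHSCs (edgeR adjusted p = 0.463 and 0.630). Rasal3, a GTPase-activating protein of blood cells, ranged from 68.3 to 299 CPM and had a log2 fold change of -0.94 and -0.94 over yHSCs in Selp_high and Selp_low paHSCs (edgeR adjusted p = 0.744 and 0.534). Nf1, the gene of neurofibromin, ranged from 0.646 to 7.77 CPM, and its span overlaps Evi2a and Evi2, with which reads may be shared.

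In the kinase cascade no member reached a log2 fold change of 1 in either direction. Map2k2 (ENSMUSG00000035027, chromosome 10 from 80941749 to 80969809, plus strand) was at 88.1, 134 and 133 CPM in yHSCs, 118, 138 and 137 CPM in Selp_low paHSCs and 151, 141 and 175 CPM in Selp_high paHSCs. All Selp_high libraries lay above all others, but the lowest of them exceeded the highest Selp_low library by a few CPM, and with DESeq2's size factors these fractions overlapped. The estimated log2 fold change was 0.24 (SE 0.22) in Selp_high over Selp_low paHSCs and 0.36 (SE 0.24) in Selp_high over yHSCs (edgeR adjusted p = 0.698 and 0.885). Map2k1 (ENSMUSG00000004936, chromosome 9 from 64093052 to 64160913, minus strand) was at 74.2, 91.9 and 103 CPM in yHSCs, 121, 106 and 96.8 CPM in Selp_low paHSCs and 140.2, 62.9 and 101 CPM in Selp_high paHSCs, with overlap in each comparison and log2 fold changes between -0.10 and 0.32. With DESeq2's size factors Map2k1, like Rasgrp2, lay higher in all Selp_low than in all yHSC libraries. Braf (ENSMUSG00000002413, chromosome 6 from 39580171 to 39702397, minus strand), the RAF kinase with the strongest basal activity, was at 16.5, 27.7 and 18.4 CPM in yHSCs, 12.5, 13.1 and 14.9 CPM in Selp_low paHSCs and 4.86, 16.5 and 28.2 CPM in Selp_high paHSCs. Its Selp_low libraries lay below the yHSC libraries (log2 fold change -0.58 (SE 0.29), edgeR adjusted p = 0.514), and the Selp_high libraries spanned both, with Ndufb2 as a possible source of shared reads. Araf ranged from 124 to 184 CPM, and its log2 fold changes, from -0.06 to 0.03 with SEs of 0.22 to 0.25, were the smallest of the cascade. Mapk3 ranged from 30.3 to 144 CPM, with the highest values in replicate 3 of both paHSC fractions, and the scaffold Ksr1 from 1.79 to 8.74 CPM. Both overlapped in every comparison.

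The Spred and Sprouty proteins are feedback inhibitors of the pathway. Spry1 (ENSMUSG00000037211, chromosome 3 from 37694096 to 37698747, plus strand) was at 42.5, 64.5 and 168 CPM in yHSCs, 68.9, 22.7 and 38.6 CPM in Selp_low paHSCs and 126, 105 and 48.7 CPM in Selp_high paHSCs. The groups overlapped, and Selp_low replicate 2 was the lowest and yHSC replicate 3 the highest library. The log2 fold change in Selp_high over Selp_low paHSCs was 1.09 (SE 0.51) (adjusted p = 0.436 by edgeR and 0.428 by DESeq2), and 1.12 (SE 0.40, adjusted p = 0.0470) by DESeq2 with the replicate block. Spred1 and Spred2, which hold neurofibromin at the membrane, ranged from 19.5 to 60.0 and 3.15 to 11.2 CPM without a gap between groups. Spry2 was close to the limit of detection in Selp_high paHSCs, at 0.129, 0.887 and 0.258 CPM, against 0.819, 0.593 and 2.96 in Selp_low paHSCs and 0.711, 2.25 and 1.83 in yHSCs. Its lowest count, in Selp_high replicate 1, was 5 reads, and it overlapped with both other groups (log2 fold change -1.77 (SE 1.06) and -1.91 (SE 1.06), edgeR adjusted p = 0.540 and 0.826). All 4 inhibitors had a log2 fold change below 0 in Selp_low paHSCs over yHSCs, from -1.01 to -0.09, and 0 of the 4 passed the test.

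Around the members, 4 further lists give the rest of the pathway. Of 20 receptors that feed into Ras in HSCs, 17 were tested by edgeR in Selp_high over Selp_low paHSCs, 17 in Selp_high over yHSCs and 18 in Selp_low over yHSCs. Their median log2 fold changes were 1.10, -0.37 and -0.98, beside -0.11, -0.03 and 0.08 for all genes. Between the paHSC fractions 7 receptors lay higher in Selp_high without overlap, or 41.2% of those tested beside 10.3% of all genes, and 0 lower, beside 10.6%. In Selp_low paHSCs over yHSCs 0 lay higher, beside 9.59% of all genes, and 7 lower, or 38.9% beside 6.74%. DESeq2 called 3 receptors higher and 0 lower in Selp_high over Selp_low paHSCs (8 and 0 with the replicate block), 0 and 1 in Selp_high over yHSCs, and 0 and 3 in Selp_low over yHSCs. For this list and those below, the shares of all genes called by DESeq2 were 2.28%, 2.78% and 2.95%, and 9.45% with the block between the paHSC fractions. EdgeR called 0, 1 and 0 receptors. The summed level of the HSC markers, which share genes such as Kit and Tek with this list, was also higher in all Selp_high than in all Selp_low libraries: the sum over 12 genes was 1470.2, 2634 and 3029 CPM in yHSCs, 1799, 1447 and 1081 in Selp_low and 3633, 2769 and 2576 in Selp_high paHSCs. The part of cell composition in the receptor levels was not tested.

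Fgfr3, a fibroblast growth factor receptor, was at 2.13, 4.10 and 4.59 CPM in yHSCs, 2.75, 1.91 and 1.65 CPM in Selp_low paHSCs and 13.8, 8.97 and 4.81 CPM in Selp_high paHSCs and had a log2 fold change of 2.11 (SE 0.52) between the paHSC fractions (DESeq2 adjusted p = 0.0290). Csf1r, the receptor of macrophage colony-stimulating factor, was at 7.11, 27.3 and 43.9 CPM in yHSCs, 2.65, 4.81 and 4.23 CPM in Selp_low paHSCs and 7.80, 36.9 and 16.6 CPM in Selp_high paHSCs. It was lower in all Selp_low libraries than in any other, with log2 fold changes of 2.39 (SE 0.62) in Selp_high over Selp_low paHSCs and -2.67 (SE 0.65) in Selp_low over yHSCs (DESeq2 adjusted p = 0.0196 and 0.00673). Axl, a receptor of Gas6, was at 20.8, 71.7 and 106 CPM in yHSCs, 12.1, 15.4 and 6.11 CPM in Selp_low paHSCs and 36.7, 92.5 and 13.6 CPM in Selp_high paHSCs and was lower in Selp_low paHSCs than in yHSCs (-2.48 (SE 0.63), DESeq2 adjusted p = 0.0131). Csf1r is itself among the 12 monocyte and macrophage markers, and C1qa, a macrophage gene of the same markers, was at 8.77, 20.5 and 35.5 CPM in yHSCs, 8.13, 7.18 and 2.02 in Selp_low and 4.44, 52.1 and 6.39 in Selp_high paHSCs. As with Csf1r and Axl, yHSC replicate 3 and Selp_high replicate 2 were its highest libraries of their groups. The sum of all 12 did not have this pattern, at 10942, 2455 and 3927 CPM in yHSCs, 1762, 1637 and 27904 in Selp_low and 2591, 1741 and 7751 in Selp_high paHSCs. The part of such cells in Csf1r and Axl was not tested.

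Flt3, whose surface protein marks progenitors that have left the HSC compartment, differed most among the receptors named here. It was at 207, 330.5 and 563 CPM in yHSCs, 42.4, 5.40 and 7.68 CPM in Selp_low paHSCs and 4.29, 7.78 and 6.73 CPM in Selp_high paHSCs. All paHSC libraries lay far below the yHSC libraries. The estimated log2 fold change was -5.87 (SE 0.47) in Selp_high paHSCs over yHSCs, the one change in these 4 lists that edgeR called (adjusted p = 0.0159), and -4.23 (SE 0.92) in Selp_low over yHSCs (adjusted p = 0.332 by edgeR, 9.20e-05 by DESeq2).

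Of 20 transcripts that ERK signalling is known to induce, DESeq2 called 0 higher and 1 lower in Selp_high over Selp_low paHSCs (0 and 3 with the replicate block), 1 and 4 in Selp_high over yHSCs, and 0 and 2 in Selp_low over yHSCs. EdgeR called 0 in each, with 3, 7 and 3 at an unadjusted p under 0.05. The medians were -0.33, -0.82 and -0.64, and the first of them turns to 0.19 with plain totals, where the median of all genes is 0.41. Emp1, a membrane protein, was at 2.74, 12.1 and 22.1 CPM in yHSCs, 1.15, 1.32 and 0.225 CPM in Selp_low paHSCs and 0, 0.271 and 0 CPM in Selp_high paHSCs. It was lower in both paHSC fractions than in yHSCs without overlap (log2 fold change -6.97 (SE 1.51) in Selp_high, DESeq2 adjusted p = 7.33e-07, and -3.69 (SE 0.96) in Selp_low, 0.00249). Dusp5, a phosphatase that acts on nuclear ERK, was at 48.8, 409 and 578 CPM in yHSCs, 38.2, 26.0 and 70.4 CPM in Selp_low paHSCs and 27.7, 13.6 and 46.4 CPM in Selp_high paHSCs. The Selp_high libraries lay below the yHSC libraries, whose own replicate 1 was far below the other two, and the log2 fold change was -3.57 (SE 0.87) (DESeq2 adjusted p = 1.90e-04). Egr3, a transcription factor of the early growth response, was at 1.05, 12.7 and 7.52 CPM in yHSCs, 9.86, 13.2 and 6.48 CPM in Selp_low paHSCs and 0.982, 1.35 and 3.61 CPM in Selp_high paHSCs and lay lower in Selp_high than in Selp_low paHSCs (-2.32 (SE 0.63), DESeq2 adjusted p = 0.0208). Ccnd1, cyclin D1, ran against these, at 6.63, 4.47 and 5.96 CPM in yHSCs, 13.6, 4.15 and 7.01 CPM in Selp_low paHSCs and 14.4, 26.4 and 12.1 CPM in Selp_high paHSCs, with a log2 fold change of 1.61 (SE 0.42) in Selp_high over yHSCs (DESeq2 adjusted p = 0.0291). In yHSC replicate 1, where Egr3, Emp1 and Dusp5 were lowest of their group, the neutrophil sum was 65087 CPM against 13581 and 19528 CPM in the other yHSC libraries. Mmp8 of the same neutrophil genes was lowest in that library, at 54.8 CPM against 293 and 463. The part of such cells in the levels of Egr3, Emp1 and Dusp5 was not tested.

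Of 77 other genes of the Ras-ERK pathway 76 were in the table and 73, 74 and 72 were tested. EdgeR called 0 in each comparison, and 9, 6 and 9 had an unadjusted p under 0.05. DESeq2 called 0 higher and 1 lower, 1 and 0, and 2 and 1 in the same order of comparisons, and 4 and 4 in the first with the replicate block. The medians were -0.15, -0.15 and -0.01, or -0.04, -0.12 and -0.09 relative to all genes. Cnksr1, a scaffold of RAF signalling, was at 0.271, 0 and 0.0547 CPM in yHSCs, 1.05, 0.264 and 0.899 CPM in Selp_low paHSCs and 8.58, 1.26 and 4.10 CPM in Selp_high paHSCs (log2 fold change 5.38 (SE 1.47) in Selp_high over yHSCs, DESeq2 adjusted p = 5.17e-04), and Rasa4, a calcium-regulated GTPase-activating protein, was at 19.5, 177 and 88.5 CPM in yHSCs, 17.7, 10.1 and 7.61 CPM in Selp_low paHSCs and 25.1, 31.6 and 26.5 CPM in Selp_high paHSCs (-2.93 (SE 0.77) in Selp_low over yHSCs, 0.00947). Cnksr1 was barely detected in yHSCs, and the Rasa4 libraries of yHSCs themselves spread widely. The parallel p38 and JNK arm, with 27 genes, had 0 calls by either tool, 3, 1 and 1 at an unadjusted p under 0.05, and medians of 0.07, -0.30 and -0.28. With the replicate block DESeq2 called 1 of these genes, Map3k8, lower in Selp_high than in Selp_low paHSCs.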

How the data were processed

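Total RNA of sorted HSCs was amplified with a SMARTer Ultra Low kit. Per the labels and methods, the authors trimmed reads with fastp, aligned them with HISAT2 2.2.1 (build mm39 per the labels) and deposited raw featureCounts 2.0.6 counts per gene, without normalization, beside a gene length. How strand was treated in counting is not stated in those sources. The table held 0 unused columns of per-sample values.

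Here each pair of groups (6 libraries) was fitted in R 4.3.3 with edgeR 4.0.16 (TMM, filterByExpr, quasi-likelihood test, legacy setting) and Benjamini-Hochberg adjustment over all genes tested. The SE is the absolute log2 fold change divided by the square root of F. DESeq2 1.42.0 and limma 3.58.1 served as alternatives, and figures used Python 3.11.15 with matplotlib 3.10.9. The steps were tested on simulated data, where recovery of changed genes was required only at a low simulated spread between libraries. At the spread estimated from these libraries only the direction of change was required. CPM and FPKM used TMM library sizes over 9 libraries.

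Members and lists were chosen with earlier results of these data known. Library by library, the text gives the 13 members called by either tool or without overlap and, in each role, the member with the highest mean FPKM, 19 in all. Of the pathway lists, up to 3 genes per comparison are named: those DESeq2 called with no overlap and the largest changes; Map3k8 was named after its value was seen. Some genes that the lists hold are not reported here.

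Residuals of equally numbered Selp_high and Selp_low libraries correlated at 0.178, 0.276 and 0.303, all above 0.1, which was taken as pairing. With equally numbered yHSCs the correlations were -0.417 to 0.0917. Libraries of different ages and numbers, which cannot be pairs, reached 0.449 (Selp_high replicate 1 with yHSC replicate 2) and 0.406 (Selp_high replicate 2 with yHSC replicate 1). These correlations therefore do not establish pairs. Promoter windows came from RefSeq (GRCm38.p6).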

Additional observations from a re-analysis of the deposited data

How the results depend on the processing

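The count of members called was 0 by edgeR in each comparison and changed with the test more than with the scale. In Selp_high over Selp_low paHSCs DESeq2 called 1 and DESeq2 with the replicate block 3, beside 2.28% and 9.45% of all genes. In Selp_high paHSCs over yHSCs the count was 1 (Rap1b) without the filter on low counts, with DESeq2, with limma voom quality weights and with the DESeq2 replicate block. The shares of all genes called were 1.14%, 2.78%, 1.37% and 3.77% in that order. In Selp_low paHSCs over yHSCs the count was 3 without the filter (Gab1, Rasgrp1 and Rasgrp3), 3 with DESeq2, 1 with voom quality weights (Gab1) and 2 with the DESeq2 replicate block (Gab1 and Rasgrp1). There the shares of all genes were 0.836%, 2.95%, 2.11% and 2.72%. The block has no basis in pairs where yHSCs, which came from other mice, are compared. The cause of these differences in count was not tested. With edgeR and each library left out in turn, the count ranged from 0 to 2 in Selp_low over yHSCs, the 2 being Rasgrp1 and Rasgrp3 without Selp_low replicate 3, and was 0 in the other comparisons. The edgeR fit of Selp_low over yHSCs without Selp_low replicate 3 called 0.534% of all genes. DESeq2 gave 0 to 3, 0 to 2 and 0 to 6 members over the same omissions, in fits that called 0.434% to 8.48%, 1.71% to 4.75% and 0.627% to 9.01% of all genes. EdgeR with the replicate block called 0 members in each comparison. The median of the members ranged over the 18 alternatives from -0.08 to 0.23 in Selp_high over Selp_low paHSCs, from -0.18 to 0.14 in Selp_high over yHSCs and from -0.03 to 0.26 in Selp_low over yHSCs, and took the other sign under 7, 3 and 1 of them (without yHSC replicate 1 in the last). None of the 20 changes that DESeq2 called or that lay without overlap changed sign under those alternatives. Most of them lay without overlap, which leaving out a library would hardly undo, so those omissions barely test their sign. Plain totals were not among the alternatives. Their shift of -0.59 in Selp_low over yHSCs is larger in size than the log2 fold changes there of Nras (0.23), Rasa2 (0.39), Rap2b (0.44) and Ptpn11 (0.54). Among the other changes between the paHSC fractions, with edgeR's replicate block the log2 fold change went from 0.10 to -0.08 for Rasgrp2, from 0.03 to -0.52 for Rap2b and from 0.28 to -0.02 for Braf. Non-overlap counts with plain totals and DESeq2's size factors were added after the data were seen: members higher in Selp_high paHSCs than in yHSCs rose from 3 to 5 under both, adding Hras and Rasa1, beside 7.87% and 8.07% of all genes. By mean FPKM 19 of 36 ranks were kept when values were rescaled to a common sum, with a largest shift of 7 ranks, and 25 with plain totals, with a largest shift of 4. Depth limits Spry2 most, whose lowest count was 5 reads, and the other 35 members had at least 11 reads in every library.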
